A study of Mus musculus with 8 samples.

Results

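Expression of the unfolded protein response and the integrated stress response was followed in cultured mouse hematopoietic stem and progenitor cells with and without red blood cells (RBCs). The group was fixed by gene name, with earlier results of these data known, and held 40 of the 24346 genes in the files. The members were 21 chaperones, folding enzymes, degradation factors and sensors of the endoplasmic reticulum (ER), called the ER arm here, and 19 genes of the Atf4 response, called the Atf4 arm. All 40 were listed in every library, and 39 were tested after a filter on low values.

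RNA was sequenced from hematopoietic stem cells (HSCs; Lin- Sca-1+ c-Kit+ CD48- CD150+) and from the broader Lin- Sca-1+ c-Kit+ fraction (LSK cells), which holds HSCs and multipotent progenitors. Both were taken from the bone marrow of wild-type C57BL/6 mice and cultured for 1 day in serum-free medium with thrombopoietin and stem cell factor, either alone or with RBCs. Each of the 4 groups (HSC control, HSC with RBCs, LSK control and LSK with RBCs) had 2 libraries, and the files do not say whether these came from separate animals, so the p-values measure only the spread between these libraries, which may be technical. The study asked which genes answer to RBCs in stem cells. The methods give an age of 8 to 20 weeks for the mice of the whole study. The RBCs came from peripheral blood that was passed through a leukocyte filter, irradiated and washed. After culture all suspensions were hemolyzed and CD45+ cells were sorted for RNA, so the sequenced cells were selected by CD45 and not sorted again by the stem cell gates. No library of RBCs alone was analysed here.

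The genes of the sort gates were present, and some of them differed with RBCs. Kit, Ly6a (Sca-1) and Ptprc (CD45) were read in all 8 libraries, and Cd48 and Flt3 were higher in all LSK libraries than in all HSC libraries. Slamf1 (CD150) stood at 10.2 and 10.7 FPKM in the HSC control, 5.50 and 6.59 FPKM in HSCs with RBCs, 4.58 and 4.63 FPKM in the LSK control and 3.09 and 4.28 FPKM in LSK cells with RBCs. Of the 12 stem and progenitor markers, Cd34 was called higher in HSCs with RBCs (log2 change 0.54) and Cd48 (-1.08), Procr (-0.52) and Kit (-0.37) lower. In HSCs 10 of the 12 had a negative value and 9 an unadjusted limma p under 0.05, against 13.67% of all genes. None was called in LSK cells, where 6 had a negative value and 4 an unadjusted limma p under 0.05, against 18.6% of all genes. Genes of other blood cells were also read. The summed level of the 10 neutrophil markers in the files was 39.3 and 32.4 FPKM in the HSC control, 299 and 88.1 FPKM in HSCs with RBCs, 188 and 284 FPKM in the LSK control, and 650 and 444 FPKM in LSK cells with RBCs. B and plasma cell markers summed to between 38.3 and 49.9 FPKM in the other groups and to 73.2 and 78.8 FPKM in LSK cells with RBCs. Of these, Sdc1 stood at 7.51 and 8.19 FPKM in the LSK control and 21.8 and 25.2 FPKM with RBCs (log2 change 1.47, limma adjusted p = 0.0011), Prdm1 and Tnfrsf17 stood between 0.0761 and 0.15 FPKM in the LSK control and between 0.406 and 0.861 FPKM with RBCs, and Jchain and Mzb1 stood between 0 and 0.514 FPKM in every library. In bulk samples, fewer cells of a type and less RNA per cell cannot be told apart.

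The ER folds secreted and membrane proteins. When unfolded proteins build up there, 3 sensors signal: Ern1 (IRE1) splices the mRNA of the transcription factor Xbp1, Atf6 is cut to release a transcription factor, and Eif2ak3 (PERK) phosphorylates the translation factor eIF2 alpha. Phosphorylated eIF2 alpha lowers protein synthesis and favours translation of Atf4, which drives genes for amino acid synthesis and transport. Other eIF2 alpha kinases respond to amino acid lack, viral RNA and heme lack, and their shared output is called the integrated stress response. In HSCs these responses are known for their part in protein quality control.

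The promoters of the members were searched for the elements known for each arm. RefSeq promoters (250 bases before to 50 bases after a start site, GRCm38.p6) were found for 35 members, 18 of the ER arm and 17 of the Atf4 arm. Both strands were searched. The ER stress response element, ERSE (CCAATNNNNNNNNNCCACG), through which Atf6 and Xbp1 are known to act, stood in 7 of 18 ER arm genes (38.889%) and in 0 of 17 Atf4 arm genes, against 0.137% of 27025 genes with a promoter. These were Hspa5, Calr, Hsp90b1, Canx, Pdia6, Dnajc3 and Creld2. The related ERSE-II (ATTGGNCCACG) stood in Herpud1 and Dnajb11 only (2 of 18) against 0.044% of all genes. The UPRE core (TGACGTGG) was found in no member and in 0.714% of all genes. In these searches, all genes are the 27025 with a promoter, of which 9157 were among the genes tested for expression. ERSE, ERSE-II and the UPRE core stood in 0.164%, 0.087% and 1.027% of those 9157. The short motif CCACG, which ERSE and ERSE-II contain, was common in both arms. It stood in 15 of 18 ER arm genes (83.333%) and 12 of 17 Atf4 arm genes (70.588%). Of all genes 35.482% held it, and of the tested genes 52.321%.

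Examples of ERSE are shown because ER folding genes carry them, and none of these 4 genes was called with RBCs. Capitals mark the 2 ends of the element, and a stretch that reads CGTGG before ATTGG holds it on the other strand. All are written 5′ to 3′ on the strand of the gene. They come from chr2:34772020-34772049 (plus strand), chr10:86705525-86705664 (minus strand, with 2 elements), chr11:50325764-50325823 (minus strand) and chr15:88819506-88819565 (plus strand).
Hspa5: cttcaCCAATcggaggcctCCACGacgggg
Hsp90b1: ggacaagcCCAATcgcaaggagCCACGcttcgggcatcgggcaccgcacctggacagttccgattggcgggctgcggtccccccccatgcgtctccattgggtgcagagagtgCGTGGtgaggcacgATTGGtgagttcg
Canx: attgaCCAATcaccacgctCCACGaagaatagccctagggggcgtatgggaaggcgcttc
Creld2: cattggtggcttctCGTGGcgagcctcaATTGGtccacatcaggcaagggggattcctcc

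The element bound by Atf4 with C/EBP partners, CARE (searched as TGATGNAA), was found in 5 of 17 Atf4 arm genes (29.412%): Chac1, Trib3, Asns, Pycr1 and Vldlr. It was found in 1 of 18 ER arm genes, Herpud1, in 4.511% of all genes with a promoter and in 2.719% of those tested for expression. Its core TTGCATCA, which overlaps it, was found in 3 of 17 and 1 of 18. The cyclic AMP response element CRE (TGACGTCA) was found in 1 of 17 Atf4 arm genes, Ppp1r15a. It stood in 2.031% of all genes with a promoter and in 3.713% of those tested for expression. The CARE examples below include Vldlr and Asns, which were called higher in HSCs with RBCs, and Chac1 and Pycr1, which were not, and Ppp1r15a is shown for its CRE, because it was called higher in LSK cells with RBCs. Capitals mark the element, with its free base in lower case. They come from chr2:119351022-119351081 (plus), chr19:27216809-27216838 (plus), chr6:7693214-7693243 (minus), chr11:120643819-120643878 (minus) and chr7:45526269-45526328 (minus).
Chac1: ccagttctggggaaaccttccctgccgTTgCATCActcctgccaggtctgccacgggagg
Vldlr: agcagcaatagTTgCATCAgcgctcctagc
Asns: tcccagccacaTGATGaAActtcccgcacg
Pycr1: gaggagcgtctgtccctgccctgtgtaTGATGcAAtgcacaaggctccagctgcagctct
Ppp1r15a: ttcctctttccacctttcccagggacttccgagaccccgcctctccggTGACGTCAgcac
All of these stretches lie before a RefSeq start site, and those of Hspa5, Vldlr and Asns lie inside the longer gene spans of GENCODE M21. A match of letters is a description of the sequence. Binding was not measured here.

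Levels are given in FPKM (mapped fragments scaled to transcript length and to the size of the library), which allows genes to be compared. Most ER arm genes were abundant. Averaged over the 8 libraries, Hspa5 (BiP, the main ER chaperone) led at 442.7 FPKM, followed by Calr (a glycoprotein chaperone) at 427.3, Xbp1 at 409.5 and Pdia3 (a disulfide isomerase) at 375.3. The highest Atf4 arm gene was Phgdh, the first enzyme of serine synthesis, at 325.2 FPKM. The lowest were Atf6 at 5.313, the proline synthesis enzyme Pycr1 at 4.609, Eif2ak3 at 3.999 and the transcription factor Atf5 at 0.2961 FPKM. Atf5 stood between 0.0895 and 0.451 FPKM in the 8 libraries and was the member that did not pass the filter.

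**Figure D1:**
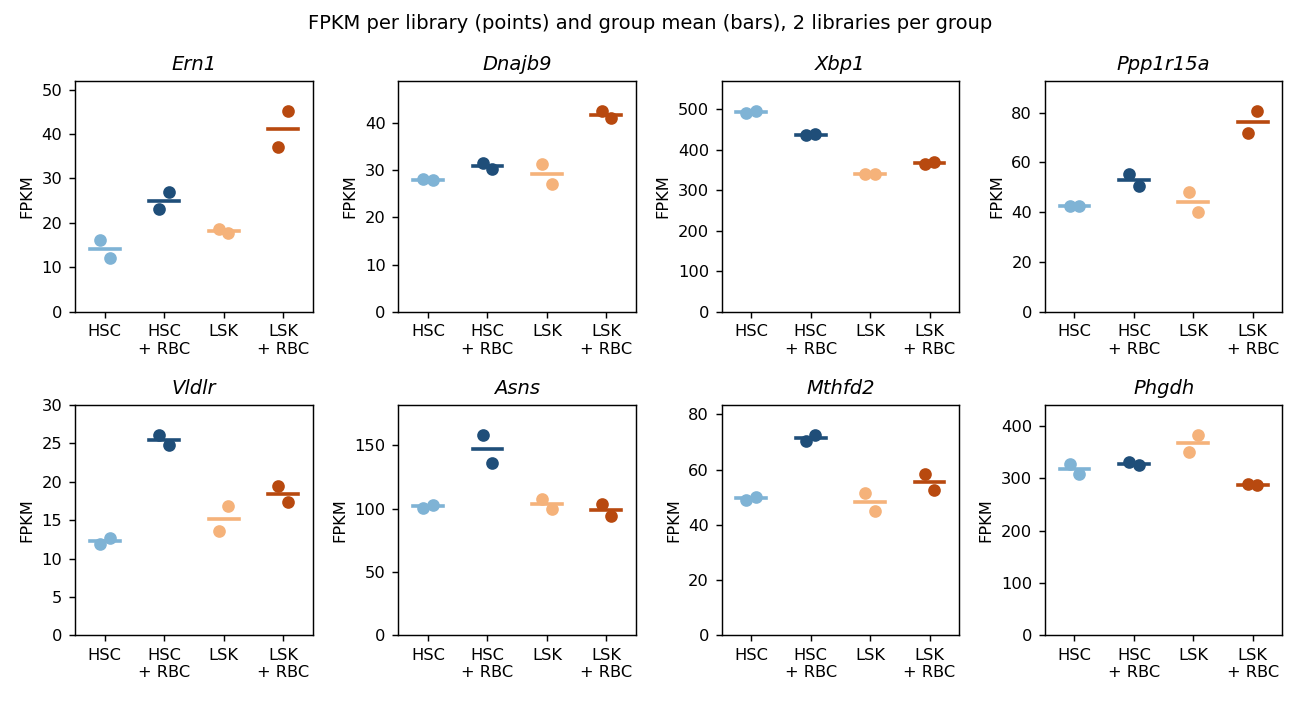
FPKM (y axis, from 0) of Ern1, Dnajb9, Xbp1, Ppp1r15a, Vldlr, Asns, Mthfd2 and Phgdh by group (x axis), with 1 point per library and a bar at the mean of the 2 libraries. Vldlr, Asns and Mthfd2 are highest in HSCs with RBCs, Ern1, Dnajb9 and Ppp1r15a are highest in LSK cells with RBCs, and Xbp1 is highest in the HSC control.

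The first comparison asked which members differed when HSCs were cultured with RBCs. Calls were made with limma at a Benjamini-Hochberg adjusted p under 0.05 over 12003 genes, and fold changes are on the log2(FPKM + 1) scale. Of 39 members, 4 were called higher and 0 lower, where 1.57% of all genes were called higher and 0.958% lower. None of the members passed with a 2-fold change as well, which 0.775% of all genes did. The 4 were Vldlr, Asns and Mthfd2 of the Atf4 arm and Ern1 of the ER arm.

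Vldlr, a lipoprotein receptor encoded at chr19:27216484-27254231 (mm10, plus strand), had the largest change. It stood at 11.9 and 12.6 FPKM in the HSC control and at 26.1 and 24.8 FPKM with RBCs, with no overlap. It rose 1.99-fold (log2 change 0.996 ± 0.12, SE; limma adjusted p = 0.0031). This call was kept under all 17 alternative settings.

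Asns and Mthfd2 rose by similar amounts. Asns, which makes asparagine, stood at 101 and 103 FPKM in the control and at 158 and 136 FPKM with RBCs (log2 change 0.52 ± 0.087, limma adjusted p = 0.016). Mthfd2, a mitochondrial enzyme of one-carbon metabolism, stood at 49.0 and 50.2 FPKM in the control and 70.5 and 72.6 FPKM with RBCs (log2 change 0.52 ± 0.087, limma adjusted p = 0.016). Neither gene's groups overlapped. Leaving out 1 library ended both calls in several cases. Without HSC control 1, HSC control 2 or HSC with RBCs 1, Asns had limma adjusted p-values of 0.065, 0.077 and 0.13. Without HSC control 1 or 2 or HSC with RBCs 1 or 2, Mthfd2 had limma adjusted p-values of 0.066, 0.077, 0.095 and 0.11.

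Ern1, the sensor that splices Xbp1 mRNA (chr11:106394650-106487852, minus strand), stood at 16.1 and 12.1 FPKM in the HSC control and 23.1 and 26.9 FPKM with RBCs. It rose 1.74-fold (log2 change 0.80 ± 0.147, limma adjusted p = 0.025), and the groups did not overlap. Without HSC control 2, HSC with RBCs 1 or HSC with RBCs 2, the limma adjusted p was 0.14, 0.075 and 0.16. The spread between the 2 control libraries was wide for this gene, and splicing of Xbp1 cannot be read from FPKM per gene.

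The other members were not called. In HSCs with RBCs 37 of 39 members had a log2 change above 0, where 48.25% of all genes did. The members were chosen with earlier results of these data known and are not independent of each other. Such counts and medians describe the group and are not a test. The median log2 change was 0.13 over the 21 ER arm genes and 0.18 over the 18 tested Atf4 arm genes, against -0.0062 over all genes. Both libraries with RBCs were above both control libraries for 17 ER arm genes and 11 Atf4 arm genes, and 19.9% of all genes behaved so. The reverse, with both libraries with RBCs lower, was seen for Xbp1 and Ddit3 and for 21.8% of all genes.

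The chaperones were among the members that were not called. Hspa5 stood at 409 and 400 FPKM in the HSC control and 486 and 477 FPKM with RBCs (log2 change 0.25 ± 0.058, limma adjusted p = 0.062). The 5 chaperones and lectins Hspa5, Hsp90b1, Calr, Canx and Hyou1 had log2 changes from 0.051 to 0.32. The 3 disulfide isomerases Pdia3, Pdia4 and Pdia6 had log2 changes from 0.14 to 0.18, and the 4 co-chaperones Dnajb9, Dnajb11, Dnajc3 and Sdf2l1 from 0.066 to 0.24. The secreted ER proteins Manf and Creld2 had log2 changes of 0.20 and 0.10. The degradation genes Herpud1, Edem1 and Sel1l lay between 0.048 and 0.13. Atf6 and Eif2ak3 had log2 changes of 0.10 and 0.07.

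Xbp1 was the ER arm gene with a negative value in HSCs. It stood at 490 and 495 FPKM in the control and 436 and 438 FPKM with RBCs (log2 change -0.17 ± 0.055, limma adjusted p = 0.17). The groups were apart but the difference was not called. In the Atf4 arm, the negative value belonged to Ddit3 (CHOP), a transcription factor of prolonged stress, at 17.4 and 16.9 FPKM in the control and 16.3 and 15.6 FPKM with RBCs (log2 change -0.09, limma adjusted p = 0.76).

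All 11 amino acid synthesis and transport members had positive values in HSCs, with a median log2 change of 0.20 and a range from 0.043 to 0.52. The 7 synthesis genes were Asns, Psat1, Phgdh, Shmt2, Mthfd2, Aldh18a1 and Pycr1, and the 4 transporters Slc7a5, Slc3a2, Slc7a1 and Slc1a5. Slc7a5, which imports large neutral amino acids, stood at 30.4 and 26.1 FPKM in the control and 35.6 and 38.6 FPKM with RBCs (log2 change 0.39 ± 0.094, limma adjusted p = 0.078). Psat1, the next serine synthesis enzyme after Phgdh, stood at 112 and 123 FPKM in the control and 133 and 137 FPKM with RBCs. Chac1, which degrades glutathione, stood at 5.88 and 6.01 FPKM in the control and 8.85 and 8.32 FPKM with RBCs, a log2 change of 0.46 that was not called (limma adjusted p = 0.14).

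In LSK cells the question was the same. Here 3 members were called higher, Ern1, Dnajb9 and Ppp1r15a, and 1 lower, Phgdh, where 2.32% of all genes were called higher and 1.13% lower. Ern1 alone also passed the 2-fold rule, which 1.01% of all genes met.

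Ern1 stood at 18.5 and 17.7 FPKM in the LSK control and 37.1 and 45.2 FPKM with RBCs. It rose 2.2-fold (log2 change 1.14 ± 0.147, limma adjusted p = 0.0048) without overlap, and the call was kept under all 17 alternatives. Ern1 was thus called higher in both cell types.

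Ppp1r15a (GADD34), which directs a phosphatase to eIF2 alpha and so ends the response (chr7:45522916-45526268, minus strand), stood at 48.0 and 40.1 FPKM in the control and 71.8 and 80.6 FPKM with RBCs. It rose 1.72-fold (log2 change 0.78 ± 0.101, limma adjusted p = 0.0047), also without overlap and under all 17 alternatives. In HSCs it stood at 42.5 and 42.3 FPKM and, with RBCs, 55.4 and 50.7 FPKM, which was not called (log2 change 0.32, limma adjusted p = 0.18). Ppp1r15a lies on the other strand from Tulp2 with some overlap, and whether the counting used strand is not given in the sources used here.

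Dnajb9, a co-chaperone that acts with Hspa5, stood at 31.2 and 27.03 FPKM in the LSK control and 42.5 and 41.1 FPKM with RBCs, and at 28.1 and 27.8 FPKM in the HSC control and 31.4 and 30.3 FPKM with RBCs. It rose 1.42-fold (log2 change 0.51 ± 0.089, limma adjusted p = 0.018). Without LSK control 2, LSK with RBCs 1 or LSK with RBCs 2, the limma adjusted p was 0.099, 0.12 and 0.10.

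Phgdh fell in LSK cells with RBCs. It stood at 351 and 383 FPKM in the control and 289 and 287 FPKM with RBCs (log2 change -0.35 ± 0.066, limma adjusted p = 0.024). Leaving out any of the 4 LSK libraries ended this call: without LSK control 1 or 2 the limma adjusted p was 0.059 and 0.14, and without LSK with RBCs 1 or 2 it was 0.13 and 0.16. The call was also lost with libraries rescaled to the same sum, quantile normalization, a replicate block, no mean-variance trend or all genes above 0. It was kept in 8 of 17 alternatives. In HSCs Phgdh stood at 328 and 308 FPKM in the control and at 331 and 325 FPKM with RBCs.

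**Figure D2:**
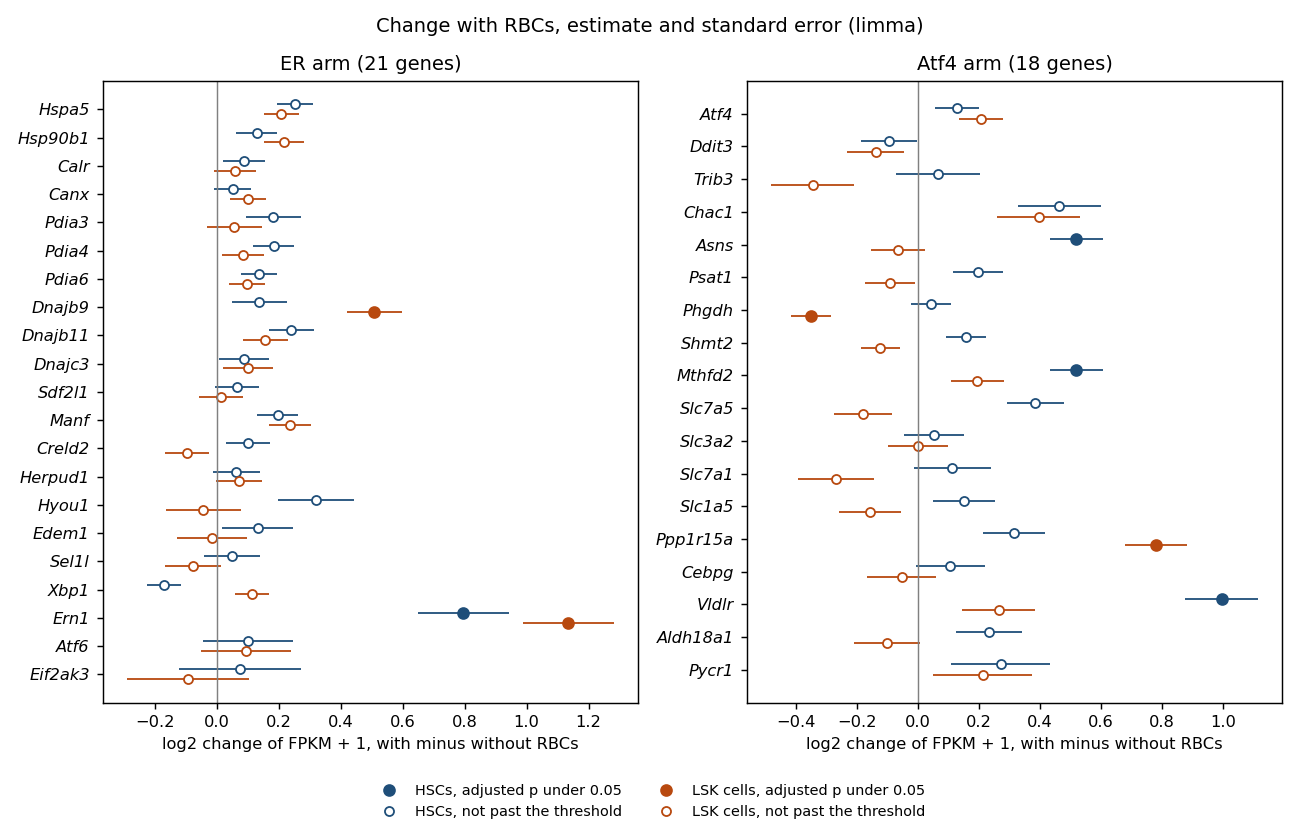
Log2 change of each tested member with RBCs in HSCs and in LSK cells (x axis, log2 of FPKM + 1, with RBCs minus control; bars are the standard error of the limma fit), with genes in rows and called values as filled points. Points for the amino acid synthesis and transport genes lie to the right of 0 in HSCs, and 8 of the 11 lie to the left of 0 in LSK cells.

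In LSK cells the members lay on both sides of 0. In the ER arm 16 of 21 genes had a value above 0 (14 of the 19 not called), with a median log2 change of 0.09. In the Atf4 arm 7 of 18 did (6 of the 16 not called), with a median of -0.08, against -0.0095 over all genes. Without LSK with RBCs 2, the median of the Atf4 arm was -0.009. Both libraries with RBCs were above both controls for 12 ER arm and 6 Atf4 arm genes, where 24.2% of all genes behaved so, and below both for 3 and 7, where 26.4% did. Hspa5 stood at 404 and 417 FPKM in the LSK control and at 464 and 484 FPKM with RBCs (log2 change 0.21, limma adjusted p = 0.093).

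Markers of RBCs and of other blood cells are given beside these calls. The hemoglobin gene Hba-a1 stood at 0.0826 and 1.398 FPKM in the HSC control and 116 and 88.7 FPKM with RBCs, and at 0.864 and 1.53 FPKM in the LSK control and 32.9 and 43.1 FPKM with RBCs. Of 6 tested RBC markers 3 were called higher in HSCs (Hba-a1, Hbb-b1 and Alas2) and 1 in LSK cells (Hba-a1). None was called lower, but Hbb-b2 had a negative log2 change in HSCs (-1.14) and LSK cells (-0.71), and Hbb-b1 in LSK cells (-1.24). Hbb-b2, the most abundant, stood at 279 and 335 FPKM in the HSC control and 120 and 158 FPKM with RBCs. The 10 RBC markers in the files summed to 282 and 338 FPKM in the HSC control and 309 and 299 FPKM with RBCs. In LSK cells they summed to 111 and 178 FPKM in the control and 184 and 119 FPKM with RBCs. The hemoglobin genes are near-identical copies, so their split is uncertain.

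Of 4 tested monocyte and macrophage markers 1 was called higher in HSCs (Csf1r) and 2 in LSK cells (Csf1r and Ccr2). Lyz2 stood at 312 and 321 FPKM in the HSC control and 221 and 218 FPKM with RBCs (log2 change -0.53, not called). Cd68 had a log2 change of 0.03 in HSCs. The 10 listed monocyte and macrophage markers summed to 402 and 433 FPKM in the HSC control and 327 and 328 FPKM with RBCs. In LSK cells they summed to 362 and 274 FPKM in the control and 491 and 604 FPKM with RBCs. Csf1r stood at 2.53 and 2.81 FPKM in the HSC control and 7.07 and 9.37 FPKM with RBCs, and at 14.1 and 22.8 FPKM in the LSK control and 47.2 and 54.3 FPKM with RBCs. Ccr2 stood at 7.61 and 4.57 FPKM in the LSK control and 34.4 and 35.0 FPKM with RBCs. Of 10 tested neutrophil markers 3 were called higher in HSCs and 2 in LSK cells. Markers of further cell types were called in both directions. Of 8 tested megakaryocyte and platelet markers 2 were called higher in HSCs (Gp1ba and Itgb3) and 1 lower in LSK cells (Pf4). Of 5 tested mast cell and basophil markers 1 was called lower in HSCs (Fcer1a) and 0 were called in LSK cells. Of 2 tested T and NK cell markers 1 was called lower in both cell types (Nkg7). Immediate early genes, which answer quickly to stimulation and handling, had a median over 10 tested genes of 0.68 (log2 change) when HSCs met RBCs and 0.75 when LSK cells did. Of these, 4 were called higher in HSCs (the largest Fos, Zfp36 and Junb) and 6 in LSK cells. Fos stood at 5.10 and 4.34 FPKM in the HSC control and 15.7 and 15.2 FPKM with RBCs, and at 3.27 and 1.74 FPKM in the LSK control and 30.9 and 35.3 FPKM with RBCs. The heat shock genes, a response to unfolded proteins outside the ER, had 0 of 15 called in either cell type, with 4 at an unadjusted limma p under 0.05 in each, against 13.7% of all genes in HSCs and 18.6% in LSK cells. They had a positive value for 11 of 15 in HSCs and a negative one for 12 of 15 in LSK cells, and the interaction was negative for 12 of 15 with a median of -0.14. The part of these cell types and genes in the changes of Ern1, Ppp1r15a, Vldlr and the other called members was not tested.

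Whether the RBC effect differed between LSK cells and HSCs was tested by the interaction in the same fit. None of the 39 members was called (0 higher, 0 lower), where 0.0833% of all genes were called higher in this difference, 0.05% lower and 0.108% with at least 2-fold. At an unadjusted limma p under 0.05 there were 10 of 39, against 12.5% of all genes. The lowest values were those of Vldlr (log2 difference -0.73 ± 0.169, limma adjusted p = 0.17), Asns (-0.59 ± 0.124, adjusted p = 0.14) and Slc7a5 (-0.56 ± 0.133, adjusted p = 0.17). The highest was that of Ppp1r15a (0.47 ± 0.142, adjusted p = 0.24). A call in 1 cell type and not in the other is therefore not shown to be a difference between them.

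The side of 0 on which the difference fell was uneven in the Atf4 arm. It was negative, that is lower in LSK cells than in HSCs, for 16 of 18 Atf4 arm genes with a median of -0.30, for 13 of 21 ER arm genes with a median of -0.04, and for 50.22% of all genes. All 11 amino acid synthesis and transport genes had a negative value, from -0.59 to -0.053, with a median of -0.32. These values come from the same libraries and are not independent of each other.

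Seen gene by gene, 10 of 18 Atf4 arm members (55.56%) had a positive value in HSCs and a negative one in LSK cells. In the ER arm 5 of 21 did (23.81%), and of all genes 22.81% did. For Slc7a5, the libraries were apart in opposite directions: in LSK cells it stood at 30.0 and 30.0 FPKM in the control and at 26.9 and 25.9 FPKM with RBCs. Shmt2, a mitochondrial serine hydroxymethyltransferase, did the same, at 153 and 155 FPKM in the HSC control, 177 and 166 FPKM in HSCs with RBCs, 156 and 167 FPKM in the LSK control and 147 and 149 FPKM in LSK cells with RBCs. Creld2 and Hyou1 of the ER arm also had this pattern, which 3.72% of all genes had. Xbp1 had the reverse pattern, which 4.07% of all genes had, and stood at 339 and 341 FPKM in the LSK control and 366 and 370 FPKM with RBCs.

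**Figure D3:**
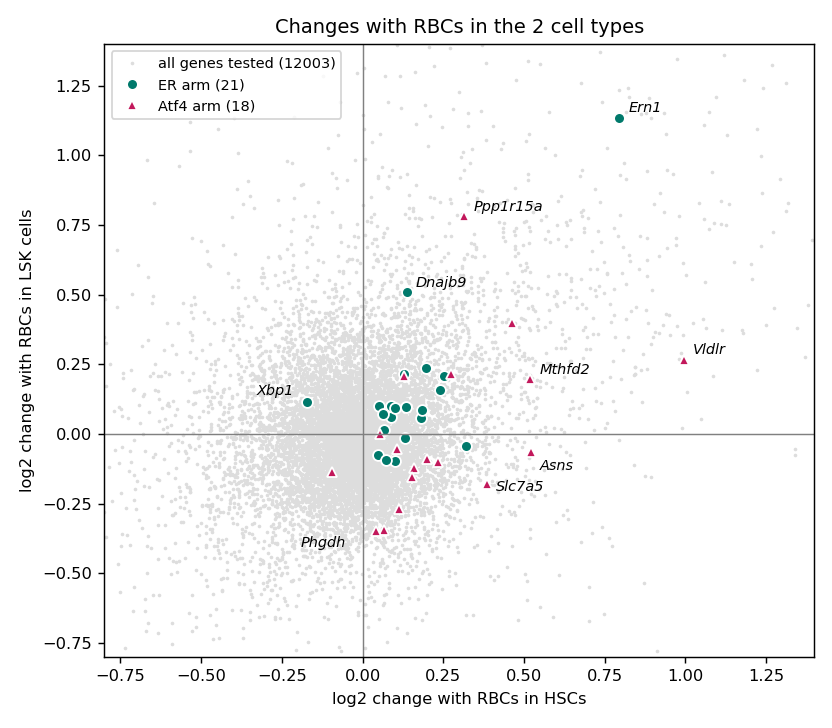
RBC effect in HSCs (x axis) against that in LSK cells (y axis), both as log2 change of FPKM + 1, for the 39 tested members coloured by arm, with all tested genes in grey within the plotted range. Ern1 lies in the upper right, Vldlr to the far right, and 10 of 18 Atf4 arm genes lie at the lower right.

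The arm as a whole can be read per library as the median over its genes of the deviation from each gene's mean over 8 libraries, on the log2 scale. For the ER arm these were -0.0772 and -0.0746 in the HSC control, 0.0608 and 0.0734 in HSCs with RBCs, -0.0897 and -0.0350 in the LSK control, and 0.0368 and 0.0413 in LSK cells with RBCs. All 4 libraries with RBCs lay above all 4 controls. For the Atf4 arm the values were -0.0679 and -0.134 in the HSC control, 0.161 and 0.0513 in HSCs with RBCs, -0.0164 and -0.00861 in the LSK control, and -0.0186 and -0.0817 in LSK cells with RBCs. Here the libraries with RBCs were higher than their controls in HSCs. In LSK cells the nearest libraries with and without RBCs stood at -0.0186 and -0.0164. They lay closer together than the 2 LSK libraries with RBCs (-0.0186 and -0.0817). The median level of the arm, log2(FPKM + 1), had the other order: 5.59 and 5.44 in the LSK control and 5.70 and 5.67 with RBCs. That level rests on the genes in the middle of the order and not on the whole arm. These were Mthfd2 and Aldh18a1 in both LSK libraries with RBCs, and Ppp1r15a with Aldh18a1 or Mthfd2 in the LSK controls. The SD of the median level between replicates was 0.0614.

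**Figure D4:**
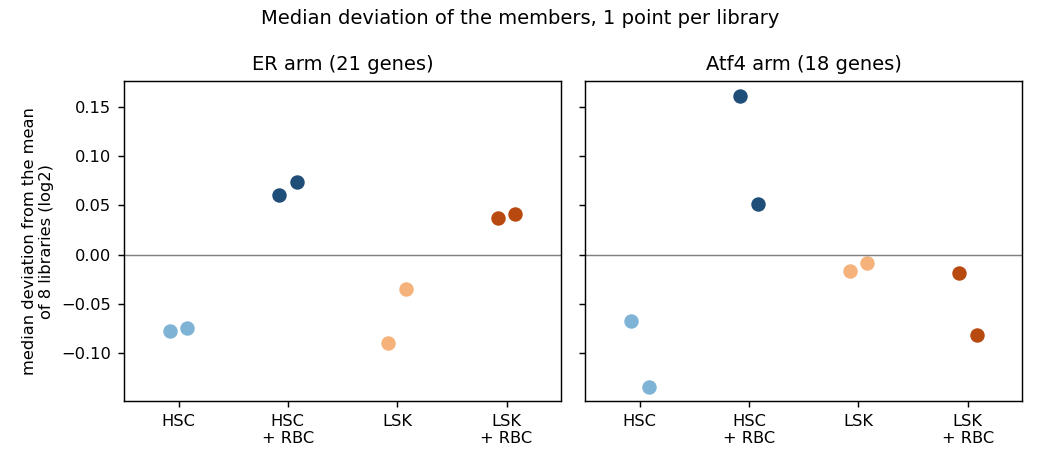
Median deviation of the genes of each arm from the genes' means over the 8 libraries (y axis, log2 of FPKM + 1), 1 point per library, by group (x axis), for the ER arm (21 genes) and the Atf4 arm (18 genes). The ER arm points with RBCs lie above 0 in both cell types, and the Atf4 arm points with RBCs lie above 0 in HSCs only.

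Cell types were compared within each culture condition as well. These comparisons share libraries with those above, so their values are given for themselves. Without RBCs, 3 members were called higher in LSK cells than in HSCs (Calr, Pdia4 and Ddit3) and 1 lower (Xbp1), where 6.93% of all genes were called higher, 7.29% lower and 2.66% with at least 2-fold, which no member reached. The median log2 difference was 0.02 in the ER arm and 0.07 in the Atf4 arm.

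Xbp1, at the levels given above, was 0.691 times as high in LSK cells (log2 difference -0.53 ± 0.055, limma adjusted p = 0.00037). The LSK and HSC controls were far apart and close within each pair. Ddit3 stood at 27.3 and 26.6 FPKM in the LSK control against 17.4 and 16.9 FPKM in the HSC control and was 1.54 times as high (log2 difference 0.62 ± 0.092, limma adjusted p = 0.0026). Both calls were kept under all 17 alternatives. Ddit3 overlaps the methionyl-tRNA synthetase gene Mars on the other strand. Mars stood at 83.1 and 69.2 FPKM in the HSC control and 73.4 and 73.1 FPKM in the LSK control. The part of its reads in the value of Ddit3 was not tested.

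Calr was higher in LSK cells without RBCs, at 464 and 458 FPKM against 370 and 373 FPKM (log2 difference 0.31 ± 0.067, limma adjusted p = 0.016), and so was the disulfide isomerase Pdia4, at 157 and 163 FPKM against 126 and 132 FPKM (log2 difference 0.31 ± 0.067, limma adjusted p = 0.016). Without LSK control 1 or 2 the limma adjusted p of Calr was 0.085 and 0.077. That of Pdia4 was 0.051 without HSC control 1, and 0.054 and 0.10 without LSK control 1 and 2.

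With RBCs, 16 members differed between the cell types: 5 were higher in LSK cells and 11 lower, where 11.9% of all genes were called higher, 12.5% lower and 3.61% with at least 2-fold, which again no member reached. Higher in LSK cells were Ern1 (log2 difference 0.69), Ddit3 (0.58), Ppp1r15a (0.51), Dnajb9 (0.43) and Calr (0.28). Lower were Creld2 and Xbp1 of the ER arm and 9 of the 18 Atf4 arm genes, whose median log2 difference was -0.26 against -0.02 in the ER arm and 0.0075 over all genes.

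Asns was lowest in relative terms. It stood at 104 and 94.5 FPKM in LSK cells with RBCs against 158 and 136 FPKM in HSCs with RBCs (log2 difference -0.56 ± 0.087, limma adjusted p = 0.0022), while the control libraries stood at 108 and 99.96 FPKM and 101 and 103 FPKM. Psat1 stood at 108 and 93.3 FPKM in LSK cells with RBCs and 108 and 106 FPKM in the LSK control (log2 difference to HSCs with RBCs -0.42, limma adjusted p = 0.0062). Shmt2 had a log2 difference of -0.21 (limma adjusted p = 0.04), Slc7a5 had one of -0.48 (adjusted p = 0.0068), and Mthfd2, at 58.3 and 52.5 FPKM in LSK cells with RBCs and 51.6 and 45.01 FPKM in the LSK control, had one of -0.36 (adjusted p = 0.016). Of the 11 synthesis and transport genes 6 were called lower in LSK cells with RBCs and 0 without RBCs, where 1 had an unadjusted limma p under 0.05 against 28.7% of all genes. That these counts differ was tested only through the interaction, which called none of them.

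The other Atf4 arm genes called lower were 3 regulators and effectors and a transporter. Vldlr stood at 19.5 and 17.4 FPKM in LSK cells with RBCs and 13.6 and 16.8 FPKM in the LSK control (with RBCs, log2 difference to HSCs -0.45, limma adjusted p = 0.025). Chac1 stood at 6.45 and 5.37 FPKM with RBCs and 4.09 and 4.38 FPKM in the LSK control (-0.48, adjusted p = 0.031). The pseudokinase Trib3, which is induced by Atf4 and Ddit3 and restrains them, stood at 25.8 and 20.1 FPKM in the HSC control, 26.6 and 21.6 FPKM in HSCs with RBCs, 21.2 and 22.6 FPKM in the LSK control and 17.5 and 16.6 FPKM in LSK cells with RBCs (-0.47, adjusted p = 0.034). The arginine and lysine transporter Slc7a1 stood at 9.95 and 10.9, 12.5 and 10.3, 10.6 and 9.94, and 8.25 and 8.44 FPKM in the same order (-0.40, adjusted p = 0.045). For Trib3 and Slc7a1 the HSC libraries with and without RBCs overlapped.

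Creld2 stood at 85.0 and 88.8 FPKM in the HSC control, 89.1 and 97.6 FPKM in HSCs with RBCs, 75.7 and 76.7 FPKM in the LSK control and 69.7 and 72.8 FPKM in LSK cells with RBCs. It was lower in LSK cells with RBCs (log2 difference -0.38 ± 0.071, limma adjusted p = 0.005). Calr, at 379 and 412 FPKM in HSCs and 461 and 501 FPKM in LSK cells with RBCs, and Ddit3, at 23.1 and 25.7 FPKM in LSK cells with RBCs, were called higher in LSK cells in both culture conditions, as Xbp1 was called lower. Pdia4, at 142 and 152 FPKM in HSCs and 175 and 165 FPKM in LSK cells with RBCs, was no longer called with RBCs (limma adjusted p = 0.051).

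Most of these 16 calls depended on single libraries, and some on the scaling. The count was 4 without LSK with RBCs 2, 7 without HSC with RBCs 1, 9 without HSC with RBCs 2, 10 without LSK with RBCs 1, and 20 without HSC control 1 or 2. Asns, Creld2 and Ddit3 were kept under all 17 alternatives. The calls of Chac1, Shmt2, Slc7a1 and Trib3, all lower in LSK cells, were lost with libraries rescaled to the same sum. Quantile normalization ended those of Shmt2 and Xbp1. FPKM sums were 689339 and 680942 in LSK cells with RBCs and 712697 and 704380 in HSCs with RBCs.

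**Figure D5:**
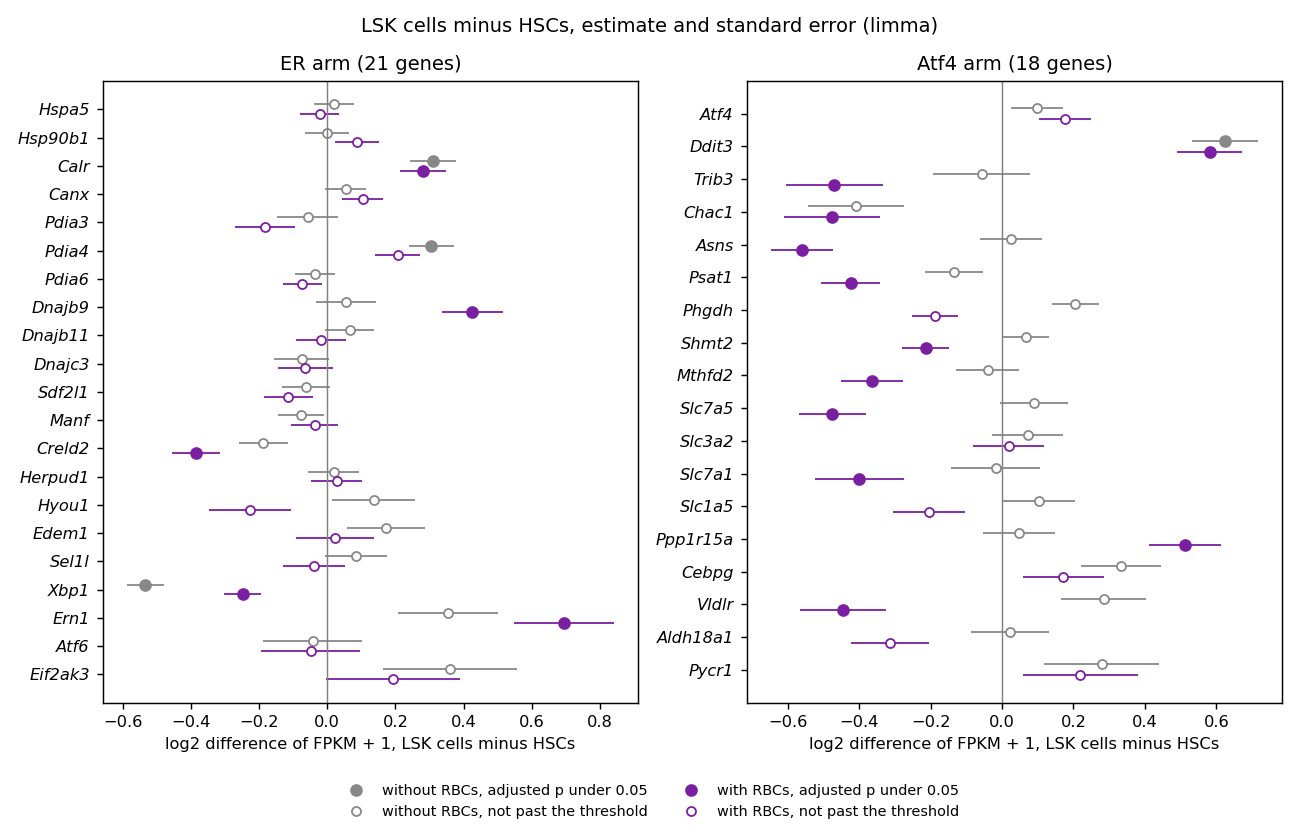
Log2 difference of each tested member between LSK cells and HSCs (x axis, LSK minus HSC, log2 of FPKM + 1; bars are the standard error of the limma fit), without and with RBCs, with genes in rows and called values as filled points. Xbp1 lies left and Ddit3 right of 0 in both conditions, and 9 of the 11 amino acid synthesis and transport genes lie left of 0 with RBCs, against 3 of 11 without.

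Of the members not called in any comparison, Atf4 itself stood at 86.8 and 87.5 FPKM in the HSC control, 98.0 and 92.8 FPKM in HSCs with RBCs, 96.4 and 90.3 FPKM in the LSK control and 103 and 113 FPKM in LSK cells with RBCs. Both libraries with RBCs were above both controls in each cell type, with log2 changes of 0.13 and 0.21 (limma adjusted p = 0.51 and 0.17). Its protein is controlled largely at translation, which mRNA does not show. The sensors Atf6, between 4.57 and 5.86 FPKM, and Eif2ak3, between 3.27 and 5.69 FPKM, were low, as were Cebpg, a partner of Atf4, between 12.1 and 17.3 FPKM, and Pycr1, between 3.57 and 5.81 FPKM. Slc3a2, the heavy chain that pairs with Slc7a5, stood between 82.1 and 98.3 FPKM in all libraries and overlapped in each comparison.

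Genes of the same pathways outside the group were read from fixed lists, also chosen with earlier results of these data known. Of 40 tested further ER genes, 0 were called with RBCs in HSCs (7 at an unadjusted limma p under 0.05, against 13.7% of all genes) and 2 in LSK cells, Serp1 (log2 change 0.35) and Ssr3 (0.26), which act at the protein channel of the ER. The medians were 0.10 and 0.11. Of 20 tested further genes of the integrated stress response, 0 were called in HSCs (5 at an unadjusted limma p under 0.05) and 1 in LSK cells, Nupr1, a stress-induced chromatin protein that stood at 62.8 and 59.2 FPKM in the control and 95.4 and 94.3 FPKM with RBCs (log2 change 0.63, limma adjusted p = 0.0012). The eIF2 alpha kinases Eif2ak1, Eif2ak2 and Eif2ak4 had log2 changes of -0.03, -0.06 and 0.10 in HSCs and 0.04, 0.08 and -0.24 in LSK cells, and were not called.

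The tRNA synthetases, many of which are known Atf4 targets, lay as the amino acid genes did. In HSCs with RBCs 17 of 19 had a positive value, with a median log2 change of 0.17 and 1 called, Cars (0.64, limma adjusted p = 0.0059). Cars stood at 27.3 and 24.1 FPKM in the HSC control, 39.3 and 41.9 FPKM in HSCs with RBCs, 31.5 and 31.1 FPKM in the LSK control and 29.1 and 30.3 FPKM in LSK cells with RBCs. In LSK cells 18 of 19 had a negative value with a median of -0.11 and 0 called (1 at an unadjusted limma p under 0.05, against 18.6% of all genes). Between the cell types with RBCs 9 of 19 were called lower in LSK cells (12.5% of all genes), led by Lars (-0.54), Yars (-0.51) and Mars (-0.46). Without RBCs 0 were called (3 at an unadjusted limma p under 0.05, against 28.7% of all genes). The interaction called 0 of 19, with 10 at an unadjusted limma p under 0.05, against 12.5% of all genes.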

How the data were processed

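The authors deposited 1 FPKM value per gene and library. Per the labels, total RNA was made into full-length cDNA (SMART-Seq HT) and Nextera XT libraries. The submitters' processing notes name TopHat2 2.1.1, Bowtie2 2.2.8, SAMtools 0.1.18, Cuffdiff 2.2.1 and the mouse build mm10. The annotation and the use of strand are not given in the sources used here. FPKM holds no read counts, so no count model was fitted. FPKM sums lay between 680942 and 752107 per library. Absolute depth is unknown. From the most frequent ratio between libraries among low genes, the relative depth was estimated at 0.787 to 1.006 of HSC control 1. Of 5365 genes with a mean under 1 FPKM and at least 2 libraries above 0, only 79.6% fitted whole multiples within 0.05. Reads were therefore not recovered.

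Values were analysed as log2(FPKM + 1) with limma 3.58.1 (trend) in R 4.3.3. The fit held 4 group means over all 8 libraries and 12003 genes with at least 1 FPKM in at least 2 libraries (4 residual degrees of freedom), with Benjamini-Hochberg adjustment over all of them. Calls were made at adjusted p under 0.05, and again with at least 2-fold change. A fold change on this scale understates that of low genes. The script was tested on simulated data. Groups came from the sample titles. Members called in any comparison are given in every library, the others by range and count. Pathway genes outside the group came from fixed lists, at most the 3 largest calls per direction. The eIF2 alpha kinases and overlapping genes were named besides. The members and lists were chosen with earlier results of these data known. Overlapping genes were read from GENCODE M21 and promoters from RefSeq GRCm38.p6. The 17 alternatives were another pseudocount, filters, scalings, fits, a replicate block and leaving out each library. Other thresholds were counted apart from these.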

Additional observations from a re-analysis of the deposited data

Results flagged for a closer look

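In 5 members both libraries with RBCs moved to opposite sides of their controls in HSCs and in LSK cells. The log2 difference of the RBC effect, LSK cells minus HSCs, was -0.2 for Creld2, -0.36 for Hyou1, -0.28 for Shmt2 and -0.56 for Slc7a5, all higher with RBCs in HSCs and lower in LSK cells, and 0.28 for Xbp1, the reverse. The difference was tested by limma's interaction term and passed for none of them (adjusted p = 0.46, 0.43, 0.27, 0.17 and 0.21 in that order). Of all genes tested, 3.72% and 4.07% showed these patterns.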

How the results depend on the processing

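With 2 libraries per group and no read counts, small changes of low genes could not be resolved. Of 28 calls of members, 8 were kept in all 17 alternatives and none changed direction. By setting, 28 were kept with a pseudocount of 0.1, with 1 FPKM in at least 1 library and with median of ratios scaling, 25 with quantile normalization, 23 with libraries rescaled to the same sum, 23 with only the libraries compared, 19 with all genes above 0 and 17 without the mean-variance trend. The members called with RBCs in HSCs were 4, against 1 with all genes above 0, 2 with only those libraries, 1 without the trend and 0 at 2-fold. In LSK cells they were 4, against 2 without the trend and 1 at 2-fold. Between cell types without RBCs they were 4, against 2 with only those libraries, 0 at 2-fold and 7 at adjusted p under 0.1, and with RBCs 16 against 0 at 2-fold. Rescaling to the same sum ended 5 calls, all of Atf4 arm genes with a negative value. These were Phgdh in LSK cells with RBCs against the control, and Chac1, Shmt2, Slc7a1 and Trib3 between cell types with RBCs. The cause of these changes between settings was not tested.

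Leaving out each library gave 1 to 4 members called in HSCs, 2 to 5 in LSK cells, 0 to 0 in the interaction, 2 to 5 between cell types without RBCs and 4 to 20 with RBCs. Median log2 changes of the ER arm ranged from 0.1095 to 0.1315 in HSCs, 0.0692 to 0.1182 in LSK cells, -0.0659 to -0.0101 in the interaction, 0.0116 to 0.0469 between cell types without RBCs and -0.0429 to 0.0158 with RBCs. Those of the Atf4 arm ranged from 0.1683 to 0.2664, -0.098 to -0.009, -0.3005 to -0.212, 0.043 to 0.1036 and -0.2723 to -0.2406 in the same order. Where a group kept 1 library, its spread was assumed to be that of the others.

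Same-numbered libraries did not deviate together (correlations of deviations from -0.067 to 0.095), so their numbers were not taken as pairs. With a replicate block 25 of 28 calls were kept, and the members called were 4, 3, 0, 4 and 14 in the order above.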
